A study of Mus musculus with 24 samples.

Results

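The genes described here encode the proteins of the cytosolic ribosome. They were chosen by name alone, as the rows of the deposited count table whose symbols begin with Rpl or Rps and a number, together with Rplp0, Rplp1, Rplp2 and Rpsa, and without the Rps6k kinases, Rps19bp1 and rows named as numbered pseudogenes. The rule gave 87 of 24421 genes, 53 of the large subunit and 34 of the small subunit. Of these, 83 had enough reads to be tested, 50 of the large and 33 of the small subunit, and the 4 that did not are accounted for beside their levels.

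The libraries came from T cells of female CByB6F1 mice with bone marrow failure, aged 2 to 5 months, in which immune attack empties the marrow. CD8 and CD4 T cells were sorted by flow cytometry from the marrow of mice that were left untreated or received cyclosporine (CSA, an inhibitor of calcineurin), low-dose ruxolitinib (RUX, an inhibitor of the kinases JAK1 and JAK2), or both drugs (RUX+CSA). Each of the 8 groups had 3 pools, each pool held the cells of 2 to 3 mice, and each pool gave 1 library, 24 in all. All groups had bone marrow failure, so the untreated pools are the reference for the drugs and no group stands for healthy marrow.

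A ribosome contains 1 copy of nearly every protein of its set, and cells keep the output of these genes balanced. Their mRNAs begin with a run of pyrimidines at the cap, the terminal oligopyrimidine or TOP motif, through which mTOR and the RNA-binding protein LARP1 control how strongly they are translated. In T cells, activation raises ribosome production, with the transcription factor MYC driving many of the assembly factors. The counts measured mRNA, and translation of these mRNAs was not measured.

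The start-site sequences of 10 members are shown because they include some of the genes past the test in the drug and cell type comparisons, with long and short runs, and a pair of paralogues described with them. Each line holds 30 bases of the GRCm38.p6 assembly from RefSeq, on the strand of the gene and 5′ to 3′. The base at position 16 is the annotated start of transcription, and the capitals mark the longest run of C and T within 10 bases of it.
Rpl18: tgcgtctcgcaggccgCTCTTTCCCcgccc
Rpl36al: cattcccgtcgCTCaggttcagttccgact
Rpl4: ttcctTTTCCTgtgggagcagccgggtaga
Rpl28: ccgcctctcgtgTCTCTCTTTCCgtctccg
Rpl15: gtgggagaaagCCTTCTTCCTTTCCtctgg
Rpl7a: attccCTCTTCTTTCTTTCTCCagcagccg
Rps6: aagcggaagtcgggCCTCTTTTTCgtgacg
Rps26: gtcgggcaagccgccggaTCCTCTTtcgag
Rps27l: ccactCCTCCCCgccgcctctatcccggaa
Rpl39l: ctcccaggCCTTTCCggatttccggtggtc
The windows lie at chr7:45718056-45718085 (Rpl18, plus strand), chr12:69184053-69184082 (Rpl36al, minus), chr9:64173372-64173401 (Rpl4, plus), chr7:4792950-4792979 (Rpl28, plus) and chr14:18270972-18271001 (Rpl15, minus). The others lie at chr2:26910792-26910821 (Rpl7a, plus), chr4:86857353-86857382 (Rps6, minus), chr10:128626492-128626521 (Rps26, minus), chr9:66946071-66946100 (Rps27l, plus) and chr16:10170213-10170242 (Rpl39l, plus).

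Within 10 bases of the start, the pyrimidine run was 17 bases long in Rpl7a, 14 in Rpl15, 11 in Rpl28, 10 in Rps6 and 9 in Rpl18. It was 7 in Rps26, Rps27l and Rpl39l, 6 in Rpl4 and 3 in Rpl36al. Runs were cut at these 10 bases. In the printed windows those of Rpl7a, Rpl15, Rpl18, Rpl4, Rps26 and Rps27l go on past the capitals, so the full runs are longer. The other run lengths given here were cut in the same way. Of genes past the test whose windows are not printed, Rps2 had a run of 6, Rps16 of 4, and Rpl5 and Rps15 of 3, and the median of all matched members was 5, against 4 for all promoters. RefSeq promoter sequence matched 66 of the 87 members. A run of at least 8 pyrimidines lay within 10 bases of the start in 18 of these 66 (27.3%), against 1987 of 27025 promoters of all genes (7.35%). A C at the start followed without a break by pyrimidines, at least 5 in all, was found in 13 of 66 members (19.7%) and in 2.49% of all promoters. Only the first listed start of each gene was used, and the starts used in these cells were not measured. The Rps27l window, for example, ends before the first counted exon base of that gene (66946118). These shares therefore do not count the mRNAs that carry a TOP motif.

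In the 300 bases from 250 before to 50 after the start, searched on both strands, CCGGAA (the core bound by ETS factors) was found in 33 of 66 members (50%) and in 15.2% of all promoters. GGGCGG (the SP1 core) was found in 59.1% against 35.9%, and AAGATGGC (a YY1 site) in 7.58% against 2.88%. TATAAA was found in 9.09% of members against 14.2% of all promoters. Each motif was counted on its own, whether or not a match overlapped one of another motif. These are matches of letters, and binding was not measured.

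Read depth was 16912085 to 34550183 assigned read pairs per library. The sorted identities held: mean Cd8a was 988 to 1071 CPM (read pairs scaled to a common library size) in the 4 CD8 groups and 1.83 to 4.78 in the 4 CD4 groups, and mean Cd4 was 1346 to 1549 CPM in CD4 groups and 0.518 to 0.921 in CD8 groups. RNA of other marrow cells was present. Summed over 18 neutrophil genes found in the table, the range was 22.8 to 1612 CPM in the untreated CD8 pools, 948 to 3615 with CSA, 1926 to 3284 with RUX and 4492 to 5883 with RUX+CSA. In CD4 pools the ranges were 102 to 9641, 3745 to 18520, 4255 to 8386 and 8956 to 10790 CPM. Macrophage genes (16 in the list) summed to 428 to 667 CPM in untreated CD8 pools and 1283 to 1823 with RUX+CSA. B cell genes (15) summed to 7.48 to 16.6 and 30.9 to 75.4 CPM in the same groups. Basophil and mast cell genes (7) summed to 0.160 to 1.07 and 46.1 to 73.8 CPM, erythroid genes (14) to 51.5 to 97.4 and 142 to 345 CPM, natural killer cell genes (8) to 222 to 296 and 391 to 409 CPM, and stem and progenitor genes (8) to 9.11 to 32.3 and 49.2 to 54.7 CPM. None of these 7 sums overlapped between untreated and RUX+CSA CD8 pools, and their part in the results below was not tested apart from the fit with a marker score given there. The natural killer cell sum was 38.2 to 114 CPM in CD4 pools, below every CD8 pool. Whether marker reads came partly from the sorted cells themselves was not tested. The libraries labelled CD8 CSA 6 and CD8 RUX 7 each stood nearer to the other drug in such markers: macrophage genes summed to 1581, 1682 and 703 CPM in CSA 4, 5 and 6 and to 1622, 716 and 610 CPM in RUX 7, 8 and 9. Shares, ratios and the members' medians in the CD8 treatment comparisons that use these libraries are given with and without them. Most values of single genes and all counts of gene lists in those groups are given with these libraries only.

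Levels of different genes were compared as RPKM, which is CPM per kilobase of the exon length given in the table. Among the highest mean levels over 24 libraries were those of Rpl32, at 875 ± 119 RPKM (SD, n = 24), Rpl4 (634), Rpl13 (627), Rps14 (534), Rps19 (507), Rplp0 (487) and Rps18 (475). The median of the 83 tested genes was 231 RPKM, and the 10th and 90th percentiles were 51.5 and 451 RPKM. Rpl4 and Rpl13 differed by less than the SD of either, while Rpl13 and Rps14 (627 ± 64.7 against 534 ± 56.2 RPKM) differed by more. In the plot of length-scaled levels the curve declines gradually across most genes and drops steeply over the last few.

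**Figure D1:**
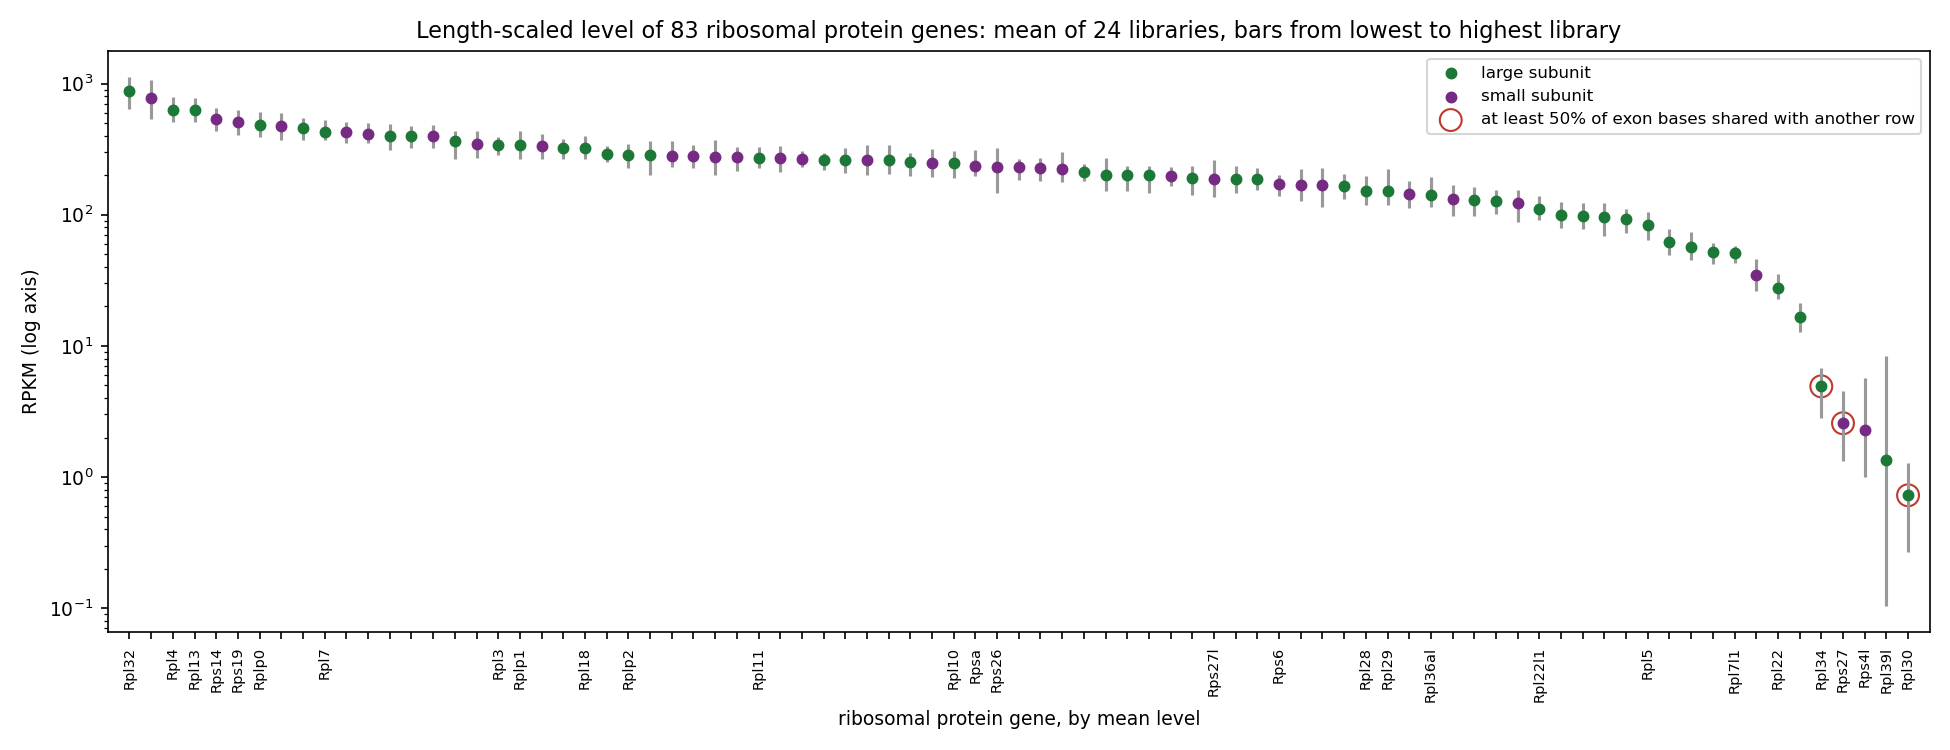
Mean length-scaled level (RPKM, log axis) of the 83 tested ribosomal protein genes in order of level, with bars from the lowest to the highest of 24 libraries; green, large subunit; purple, small subunit. Rings mark Rpl34, Rps27 and Rpl30, for which at least 50% of the exon bases belong to another gene of the table too, and these genes sit at 4.91, 2.57 and 0.726 RPKM.

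The lowest levels belonged to 2 kinds of gene. Rpl34 (4.91 RPKM), Rps27 (2.57) and Rpl30 (0.726) encode core proteins of the ribosome, and 59.9%, 60% and 76% of their exon bases overlapped Rpl34-ps1, Rps27rt and Gm12191. The deposited counts leave out read pairs that fall on 2 genes, per the counting command in the file header. Rpl26 and Rps27rt had 0 read pairs in all 24 libraries, with 95.8% and 100% of their exon bases on Gm15772 and Rps27. These 5 were all members with at least 50% of their exon bases shared, and no level of theirs passed 4.91 RPKM. The values of Rpl26, Rpl30, Rpl34 and Rps27 therefore count only the reads of their unshared bases.

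The second kind were paralogues with restricted expression. Rps4l stood at 2.29 RPKM beside 272 for Rps4x, and Rpl39l, known for its expression in testis, at 1.34 beside 190 for Rpl39. Rpl3l, the form of striated muscle, had 35 read pairs in all, spread over 14 libraries, and Rpl10l, another testis form, had 1 read pair. Both were too low to test. Other pairs were closer: Rpl36a and Rpl36al stood at 100.3 and 142 RPKM, and Rpl7 and Rpl7l1 at 430 and 51.3. In the Rpl22 pair the paralogue was higher per kilobase, with 27.4 RPKM for Rpl22, which is needed for the development of αβ T cells, and 110 for Rpl22l1. Before scaling by length the order was the reverse, at a mean of 68.4 CPM for Rpl22 and 52.4 for Rpl22l1. Their exon lengths in the table were 2497 and 477 bases, and which exons these cells use was not tested. Rps27l, a target of p53, stood at 188 RPKM.

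Ribosomal protein genes have many processed pseudogenes, and a read that matches several loci equally was not counted. Of the 50-base stretches in the GENCODE M21 transcripts of 85 members, a median of 34.5% also occurred in another gene, from 0 in members such as Rpl3l and Rpl39l to 91.1% in Rps27rt. Stretches of Rpl7a occurred in 120 pseudogenes. The share was 50% or more in 22 tested members, whose median level was 248 RPKM, and lower in 59 others, whose median was 231.

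Within a library these genes took a small and steady share of all assigned read pairs. The share was 1.61% ± 0.124 (SD, n = 3) in untreated CD8 pools, 1.66% ± 0.167 with CSA, 1.64% ± 0.0617 with RUX and 1.67% ± 0.164 with RUX+CSA. In CD4 pools it was 1.58% ± 0.148, 1.64% ± 0.157, 1.63% ± 0.259 and 1.54% ± 0.0523. The 24 libraries ran from 1.38% (CD4 RUX 21) to 1.89% (CD4 RUX 20), and these extremes were pools of the same group. Within each cell type the 4 groups overlapped. Without the libraries labelled CSA 6 and RUX 7, the other CD8 CSA pools had 1.57% and 1.55% and the other CD8 RUX pools 1.63% and 1.59%.

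**Figure D2:**
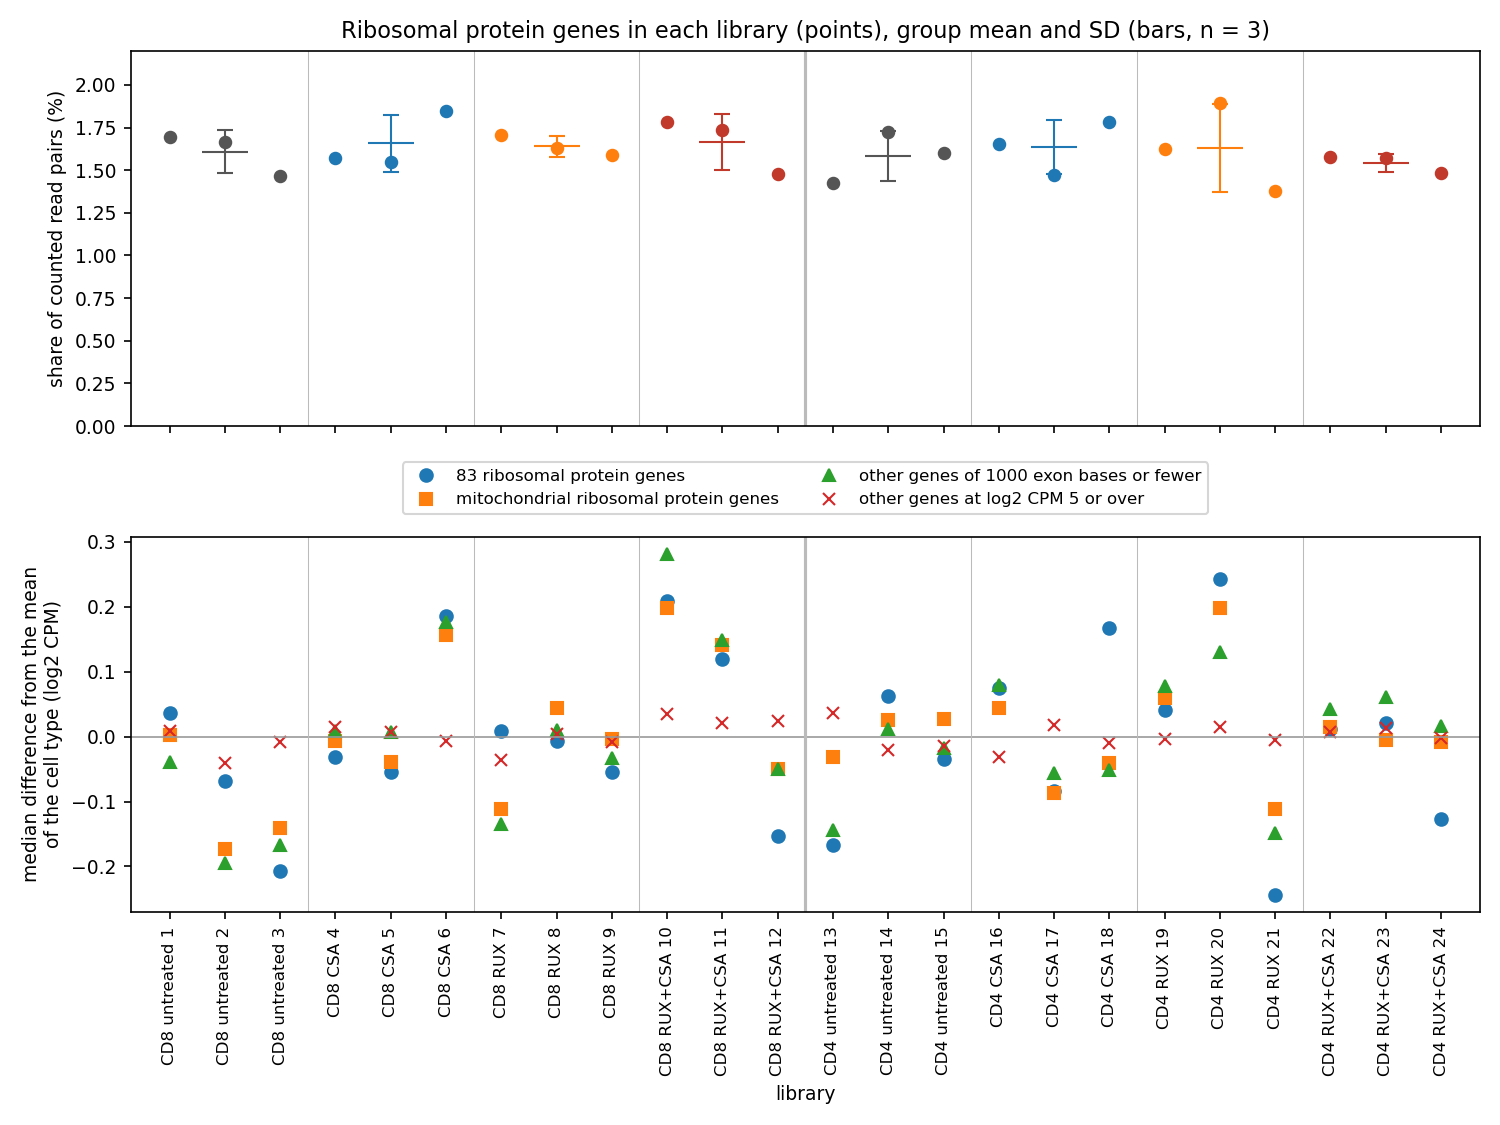
Upper panel: share of assigned read pairs in ribosomal protein genes (%, axis from 0) for each library, with the mean and SD of each group of 3 pools. Lower panel: median difference in log2 CPM from the mean of the 12 libraries of the cell type. The sets are ribosomal protein genes, mitochondrial ribosomal protein genes, non-members of 1000 exon bases or fewer and all non-members, both at log2 CPM 5 or over. The non-member sets can include mitochondrial ribosomal protein genes. The ribosomal protein medians run from -0.244 to 0.242.

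Single members were also steady. The ratio of the highest to the lowest of 24 libraries had a median of 1.58 over the 83 genes and was at most 2 in 77 of them. Among the 78 members at 5 CPM or over it was highest in Rps26, at 2.22. The SD of log2 CPM between pools of a group had a median of 0.162, against 0.232 for all 13476 genes tested and 0.137 for 4239 genes at levels like those of the members. The range of the 8 group means had a median of 0.271 on the log2 scale, against 0.710 for all genes and 0.425 for the genes of like level.

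Much of the variation between pools was shared by the whole set. In 5 libraries at least 70 of 83 members lay above their own mean for the cell type: CD8 RUX+CSA 10 (82 members), CD8 CSA 6 (80), CD4 RUX 20 (79), CD4 CSA 18 (74) and CD8 RUX+CSA 11 (73). In 8 libraries at most 15 did, among them CD4 RUX 21 (3), CD8 untreated 3 (5), CD8 RUX 9 (9) and CD8 RUX+CSA 12 (12). High and low libraries occurred in the same group: the 3 CD8 RUX+CSA pools had 82, 73 and 12 members above the mean, and the 3 CD4 RUX pools 56, 79 and 3. Subtracting the median of the members in each library lowered the SD between pools from 0.162 to 0.0782 on the log2 scale and lowered it in 80 of 83 members.

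**Figure D3:**
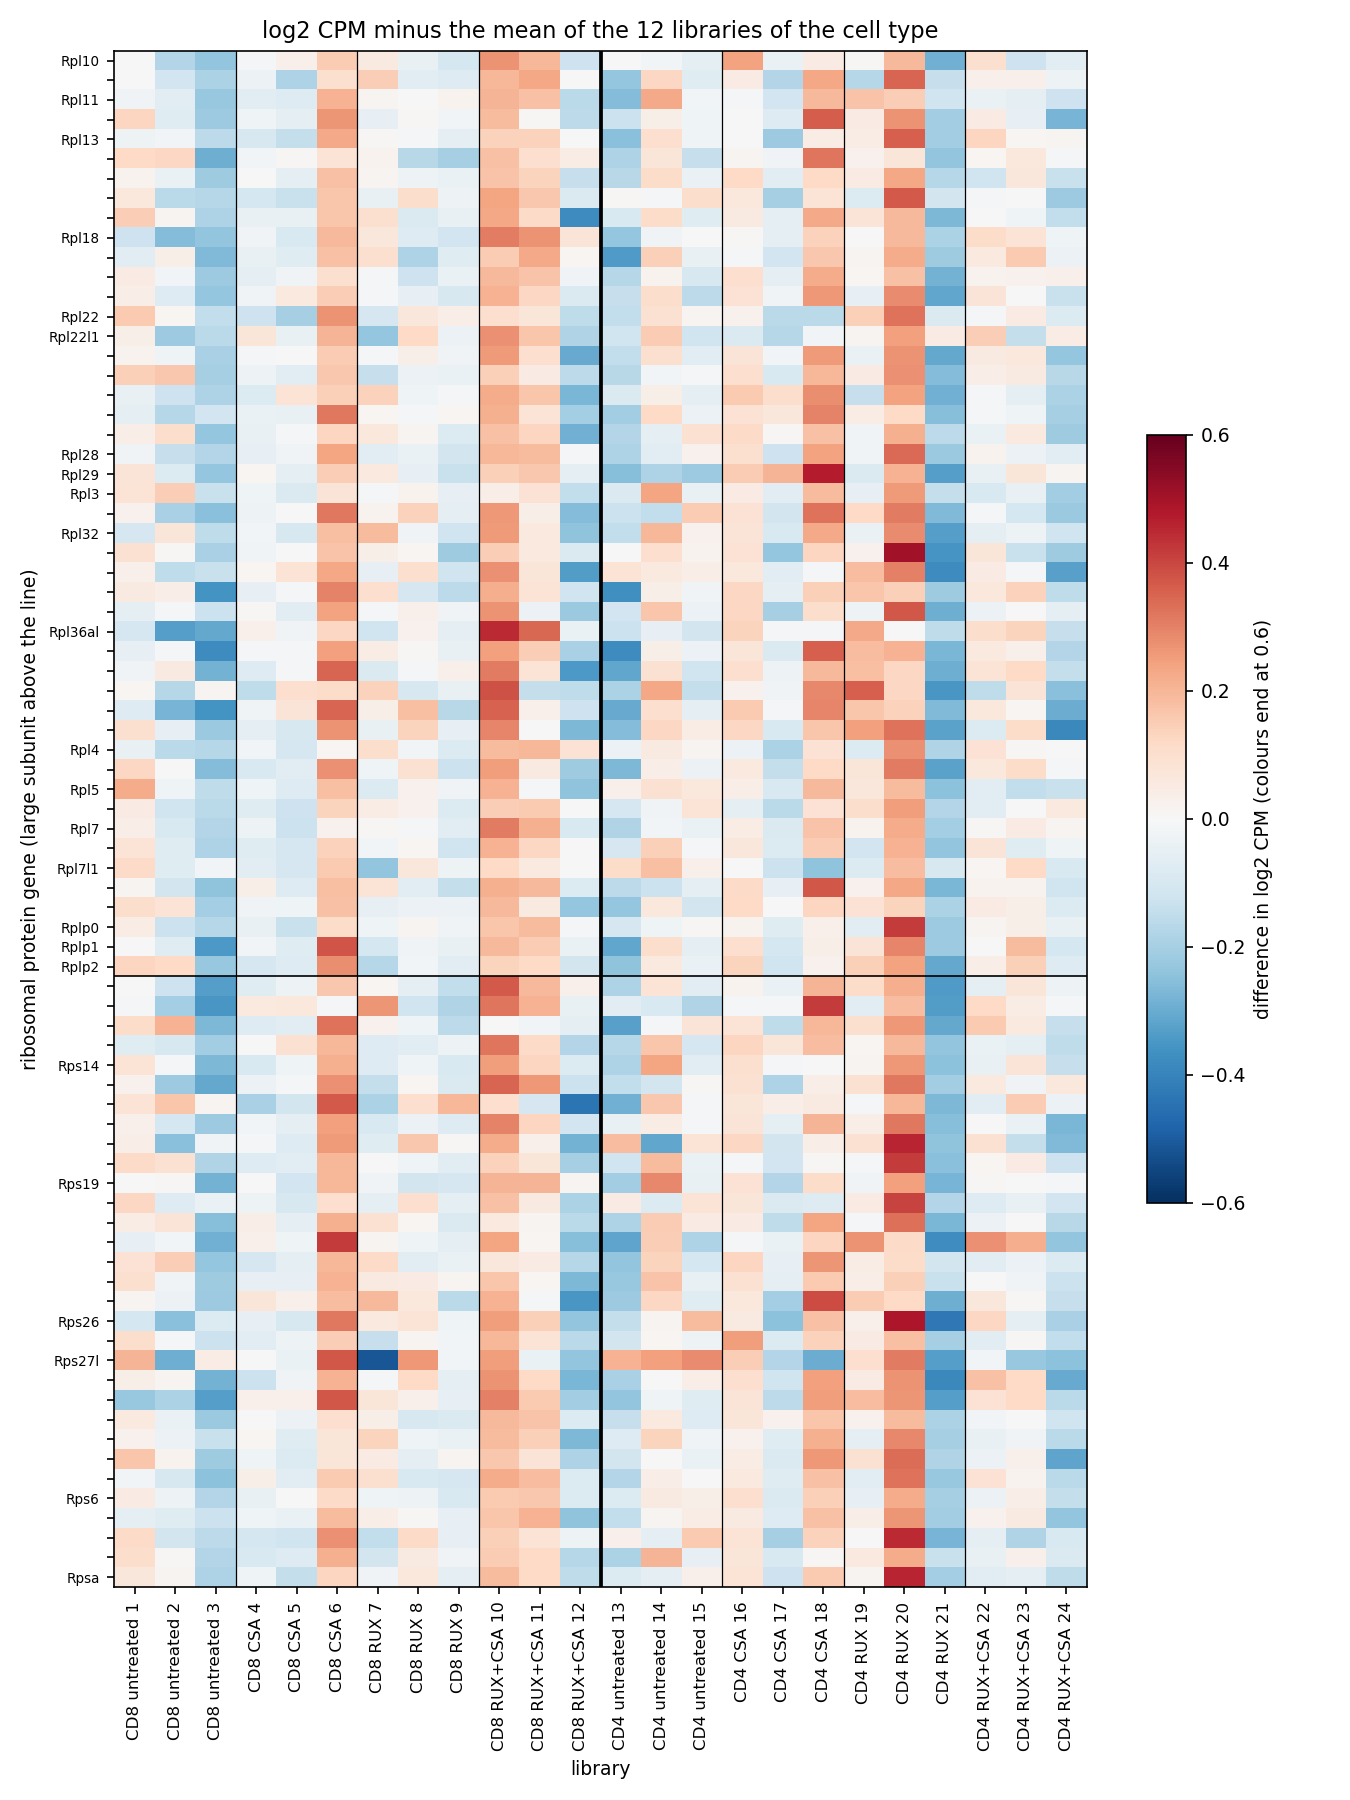
Difference in log2 CPM from the mean of the 12 libraries of the cell type, for 78 ribosomal protein genes at 5 CPM or over (rows, labelled for some) in 24 libraries (columns; thin lines divide groups, the thick line divides CD8 from CD4). Whole columns are red (CD8 RUX+CSA 10, CD8 CSA 6, CD4 RUX 20) or blue (CD8 untreated 3, CD4 RUX 21). Rps27l and Rpl29 are among the genes that depart from the columns in CD4.

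Other gene sets moved with these swings in part. In CD8 RUX+CSA 10 the median difference from the CD8 mean was 0.209 on the log2 scale for ribosomal protein genes. It was 0.198 for 77 mitochondrial ribosomal protein genes and 0.282 for 333 short genes. The short genes were non-members at a log2 CPM of 5 or over with at most 1000 exon bases. They can include mitochondrial ribosomal protein genes, so these sets may overlap. In CD8 untreated 3 the same medians were -0.207, -0.141 and -0.166, and in CD4 RUX 21 they were -0.244, -0.111 and -0.149. In CD8 CSA 6 they were 0.186, 0.157 and 0.177. The median of 5962 other genes at a log2 CPM of 5 or over, which include the short genes, stayed between -0.0407 and 0.0360 in all 24 libraries. TMM scaling and centring on the cell type mean hold the median of so many genes near 0, so this range is not a separate result. In CD4 CSA 18, in contrast, ribosomal protein genes stood at 0.168 while short genes stood at -0.0516. The part of transcript length or RNA quality in these swings was not tested.

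The balance between the subunits was tighter than the share itself. Read pairs in large subunit genes divided by those in small subunit genes gave 1.426 ± 0.012 (SD, n = 3) in untreated CD8 pools, 1.422 ± 0.00527 with CSA, 1.429 ± 0.0104 with RUX and 1.468 ± 0.0392 with RUX+CSA. The 3 CD8 RUX+CSA pools gave 1.434, 1.460 and 1.511, which overlapped RUX 7 at 1.440. Without the libraries labelled CSA 6 and RUX 7, the other CSA pools had 1.43 and 1.42 and the other RUX pools 1.42 and 1.43. In CD4 the ratio was 1.442 ± 0.0121, 1.448 ± 0.0115, 1.448 ± 0.0157 and, with RUX+CSA, 1.491 ± 0.0143. The CD4 RUX+CSA pools gave 1.485, 1.480 and 1.507, above the other 9 CD4 libraries, of which the highest was 1.463. Without Rpl4, the member with the most reads, these pools gave 1.346, 1.350 and 1.365 and the highest of the other CD4 libraries 1.336. No test was made of this ratio, which was computed over the chosen genes.

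The main comparison of the study set RUX+CSA against no treatment. In CD8 cells, 3 ribosomal protein genes were higher with both drugs and none was lower: Rpl18, Rpl36al and Rpl4, all of the large subunit. This was 3.61% of the 83 tested, against 15.7% of all 12684 genes tested (7.94% higher and 7.73% lower), by edgeR's quasi-likelihood test with Benjamini-Hochberg adjustment over all genes. The members' median log2 fold change was 0.13, with 74 of 83 above 0, while the median of all genes was -0.02. The members' median was 0.08 without untreated pool 3 or RUX+CSA pool 10 and 0.24 without RUX+CSA pool 12. In bulk RNA of sorted cells, a changed make-up of cells and a changed amount of mRNA per cell cannot be told apart.

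Rpl18 encodes a protein of the large subunit and lies on chromosome 7 (mm10, 45718071 to 45720835, plus strand). Its level was 202, 183 and 186 CPM in the untreated CD8 pools and 272, 265 and 232 CPM with RUX+CSA. It was 216, 206 and 252 CPM with CSA alone and 230, 208 and 203 CPM with RUX alone. All 3 RUX+CSA pools were above all 3 untreated pools, and the means of the single drugs lay between, with the pool of CSA 6 above RUX+CSA 12. The log2 fold change of RUX+CSA against untreated was 0.42 ± 0.096 (SE), adjusted p = 0.018 by edgeR. CSA alone gave 0.24 ± 0.096 (adjusted p = 0.481, edgeR) and RUX alone 0.16 ± 0.096 (adjusted p = 0.902, edgeR).

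Rpl36al is the autosomal paralogue of the X-linked Rpl36a, whose protein sits near the exit site for tRNA. It lies on chromosome 12 (mm10, 69182734 to 69184067, minus strand). Untreated CD8 pools had 68.7, 58.7 and 59.7 CPM, and RUX+CSA pools 101, 93.8 and 71.8 CPM. The groups did not overlap, and the third RUX+CSA pool, pool 12, was close to the highest untreated one. The log2 fold change was 0.50 ± 0.116 (SE), adjusted p = 0.0185 by edgeR. With CSA alone the pools had 75.3, 72.7 and 80.5 CPM, also above all untreated pools, at 0.29 ± 0.116 (SE) and adjusted p = 0.481 by edgeR.

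Rpl4 encodes a protein whose long loop lines the exit tunnel of the nascent chain, and lies on chromosome 9 (mm10, 64173387 to 64178562, plus strand). It stood at 940, 867 and 864 CPM in untreated CD8 pools and at 1108, 1115 and 1031 CPM with RUX+CSA, without overlap. The log2 fold change was 0.28 ± 0.081 (SE), adjusted p = 0.0401 by edgeR. Next in order came Rps10, of the beak of the small subunit, at 0.34 ± 0.110 (SE) and adjusted p = 0.0549 by edgeR. In all, 5 members had every RUX+CSA pool above every untreated pool (20.7% of all genes did) and none had every pool below (22.7% of all genes).

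**Figure D4:**
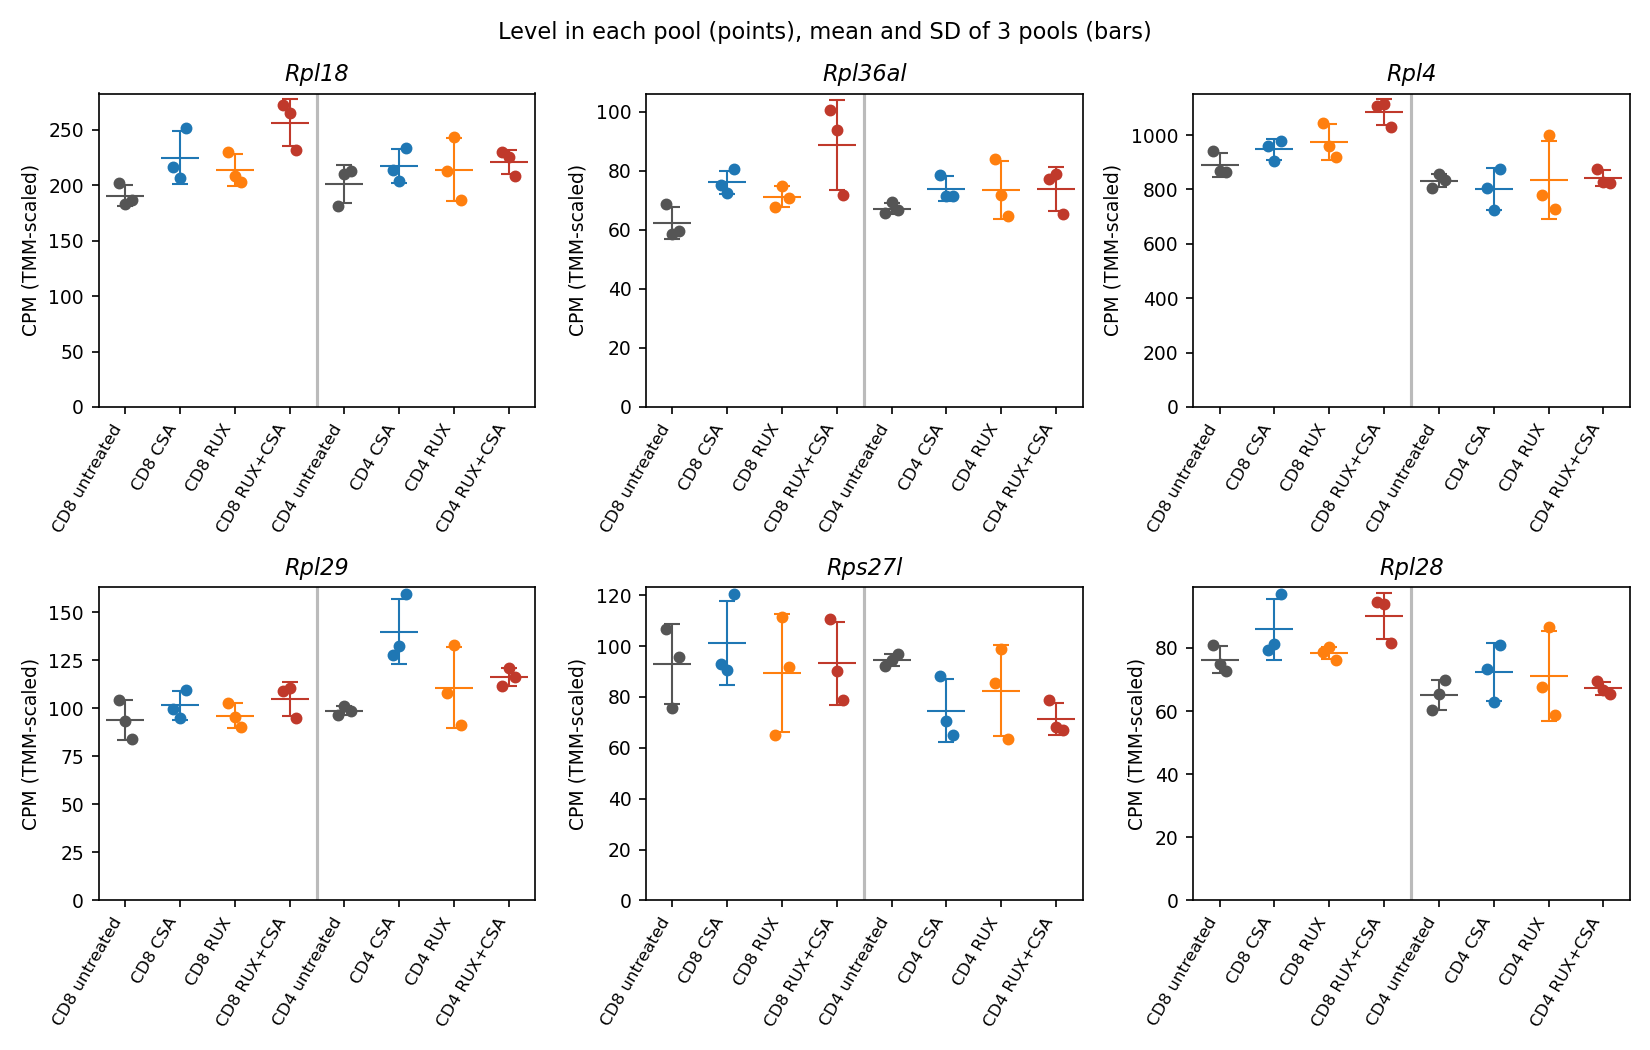
Level (TMM-scaled CPM, axes from 0) of 6 ribosomal protein genes in each of 3 pools per group (points), with the mean and SD (bars). Rpl18, Rpl36al and Rpl4 have their highest mean in CD8 RUX+CSA pools and Rpl29 in CD4 CSA pools, Rps27l is lower in CD4 RUX+CSA pools than in untreated CD4 pools, and Rpl28 is lower in CD4 than in CD8 pools under RUX+CSA.

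These 3 calls rested on few libraries. Leaving out untreated pool 2 or 3, or RUX+CSA pool 10 or 11, left 0 members past the test (7, 5, 4 and 6 with an unadjusted p under 0.05, edgeR), and leaving out RUX+CSA pool 12 gave 10. In those 4 fits with 0 calls the log2 fold change of Rpl18 was 0.38 to 0.40, that of Rpl36al 0.41 to 0.46 and that of Rpl4 0.25 to 0.27, against 0.42, 0.50 and 0.28 with all pools. With a score of other cells' markers as a covariate, 0 of 83 members and 0 of all genes passed (0 members with an unadjusted p under 0.05, edgeR), with adjusted p = 0.72 for Rpl18 and Rpl4 and 0.68 for Rpl36al. The log2 fold changes in that fit were 0.29 for Rpl18, 0.41 for Rpl36al, 0.25 for Rpl4 and 0.48 for Rps10, and the members' median was 0.23. None of the marker sums overlapped between these groups, so the fit separates the score from treatment poorly.

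At the observed error, most members were bounded closely in this comparison. The 95% interval of the fold change lay within 1.5-fold in either direction for 71 of 83 members and within 2-fold for 79. The remaining wide intervals included low genes such as Rpl39l, at 1.58 ± 0.655 (log2, SE) and adjusted p = 0.115 by edgeR.

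The single drugs gave no call in CD8 cells. For CSA against untreated, 0 of 83 members passed edgeR (4 had an unadjusted p under 0.05; DESeq2 called 0), as did 0 of all 12684 genes (0% called). The members' median log2 fold change was 0.11, with 76 of 83 above 0, and 0.02 without the libraries labelled CSA 6 and RUX 7. In 9 members every CSA pool was above every untreated pool (8.77% of all genes) and in 0 every pool was below (8.36%). The members with the smallest p were Rps29 (log2 0.40 ± 0.129, adjusted p = 0.439), Rpl38 (0.38 ± 0.140, 0.464) and Rpl18, by edgeR. Rps29 had 81.3, 83.5 and 75.7 CPM in untreated pools and 97.3, 97.1 and 123 CPM with CSA, without overlap; the highest value was that of CSA 6. For RUX against untreated, 0 members passed edgeR (0 with an unadjusted p under 0.05; DESeq2 called 0; 0% of all genes were called), with a median of 0.05 and 0.02 without those libraries. Without untreated pool 3 the medians were 0.03 for CSA and -0.01 for RUX.

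Comparing treated groups of CD8 cells, 0 of 83 members passed in RUX+CSA against CSA (2 with an unadjusted p under 0.05; median log2 0.01), RUX+CSA against RUX (4; 0.07) or RUX against CSA (0; -0.07) by edgeR, and DESeq2 called 0 in each. Of all genes, 0.0788%, 0% and 0% were called. No member passed on adding 1 drug to the other, and Rpl4 in RUX+CSA against CSA had a log2 fold change of 0.19 ± 0.081 (SE) with adjusted p = 0.372 by edgeR. With the libraries labelled CSA 6 and RUX 7 left out, the medians were 0.10 for RUX+CSA against CSA, 0.09 for RUX+CSA against RUX and -0.01 for RUX against CSA, and 1 member passed, in RUX+CSA against RUX. Leaving out RUX+CSA pool 10 alone gave medians of -0.05 against CSA and 0.01 against RUX.

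In CD4 cells no member passed in any of the 6 comparisons between treatments by edgeR. For RUX+CSA against untreated the members' median log2 fold change was 0.00, with 40 of 83 above 0 and 43 below, while 1.77% of all 13175 genes were called (1.02% higher, 0.744% lower). One member had an unadjusted p under 0.05, and DESeq2 called 0. The 95% interval lay within 1.5-fold for 76 of 83 members. Against untreated, CSA gave a median of 0.09 (64 above 0; 1.48% of all genes called) and RUX a median of 0.07 (73 above 0; 0% called). Of the members, 3 and 0 had an unadjusted p under 0.05. DESeq2 called 1 and 0. The RUX median was -0.04 without CD4 RUX 20, 0.19 without CD4 RUX 21 and 0.02 without untreated pool 13, and the CSA median was 0.02 without untreated pool 13 and 0.04 without CSA 18.

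The member with the smallest p in that cell type was Rpl29, a small protein of the large subunit's surface. It lies on chromosome 9 (mm10, 106429539 to 106431567, plus strand). Its level was 96.3, 101 and 98.8 CPM in untreated CD4 pools and 128, 132 and 159 CPM with CSA, and the groups were well apart. With RUX alone it was 108, 133 and 91.3 CPM, and with both drugs 112, 121 and 116 CPM. The log2 fold change of CSA against untreated was 0.50 ± 0.124 (SE), with adjusted p = 0.0622 by edgeR and 0.0084 by DESeq2. In CD8 cells the level was 104, 93.2 and 84.0 CPM untreated and 99.7, 95.2 and 110 CPM with CSA.

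Within the swings of whole libraries, Rpl29 departed from the other members. Relative to the median member of the same library, it stood at -0.17 on the log2 scale in untreated CD4 pools (-0.25 to -0.09) and at 0.22 with CSA (0.08 to 0.30). In the 4 CD8 groups its relative means lay between -0.02 and 0.02. Stretches of this gene's sequence occur in 81 pseudogenes.

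Rps27l showed another departure. Its protein is close to that of Rps27, and it is known as a p53 target that binds MDM2. It lies on chromosome 9 (mm10, 66946118 to 66949509, plus strand). The level was 92.0, 94.5 and 96.9 CPM in untreated CD4 pools, 88.4, 70.5 and 64.9 CPM with CSA, 85.3, 98.8 and 63.4 CPM with RUX, and 78.8, 68.1 and 67.2 CPM with both. Every RUX+CSA pool was below every untreated pool. The log2 fold change was -0.40 ± 0.150 (SE), but adjusted p = 0.179 by edgeR, so that it did not pass. Relative to the median member it stood at 0.29 in untreated CD4 pools (0.18 to 0.37) and at -0.13 with RUX+CSA (-0.25 to -0.03). Rpl29 and Rps27l were not the only members to depart. In CD4 CSA 18, Rpl7l1 stood at -0.24 from its CD4 mean on the log2 scale, while the median member stood at 0.17.

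Other comparisons between treated CD4 groups gave medians of -0.09 (RUX+CSA against CSA; 0.281% of all genes called), -0.06 (RUX+CSA against RUX; 0.782%) and -0.02 (RUX against CSA; 2.52%). The RUX+CSA against RUX median was 0.07 without RUX 20, the RUX against CSA median 0.04 without CSA 18 and 0.09 without RUX 21, and the RUX+CSA against CSA median -0.02 without CSA 18. By edgeR 0 members passed in each, 2, 0 and 1 had an unadjusted p under 0.05, and DESeq2 called 0. The last of these was Rpl29, at -0.34 ± 0.124 (log2, SE) in RUX against CSA, with adjusted p = 0.189 by edgeR.

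**Figure D5:**
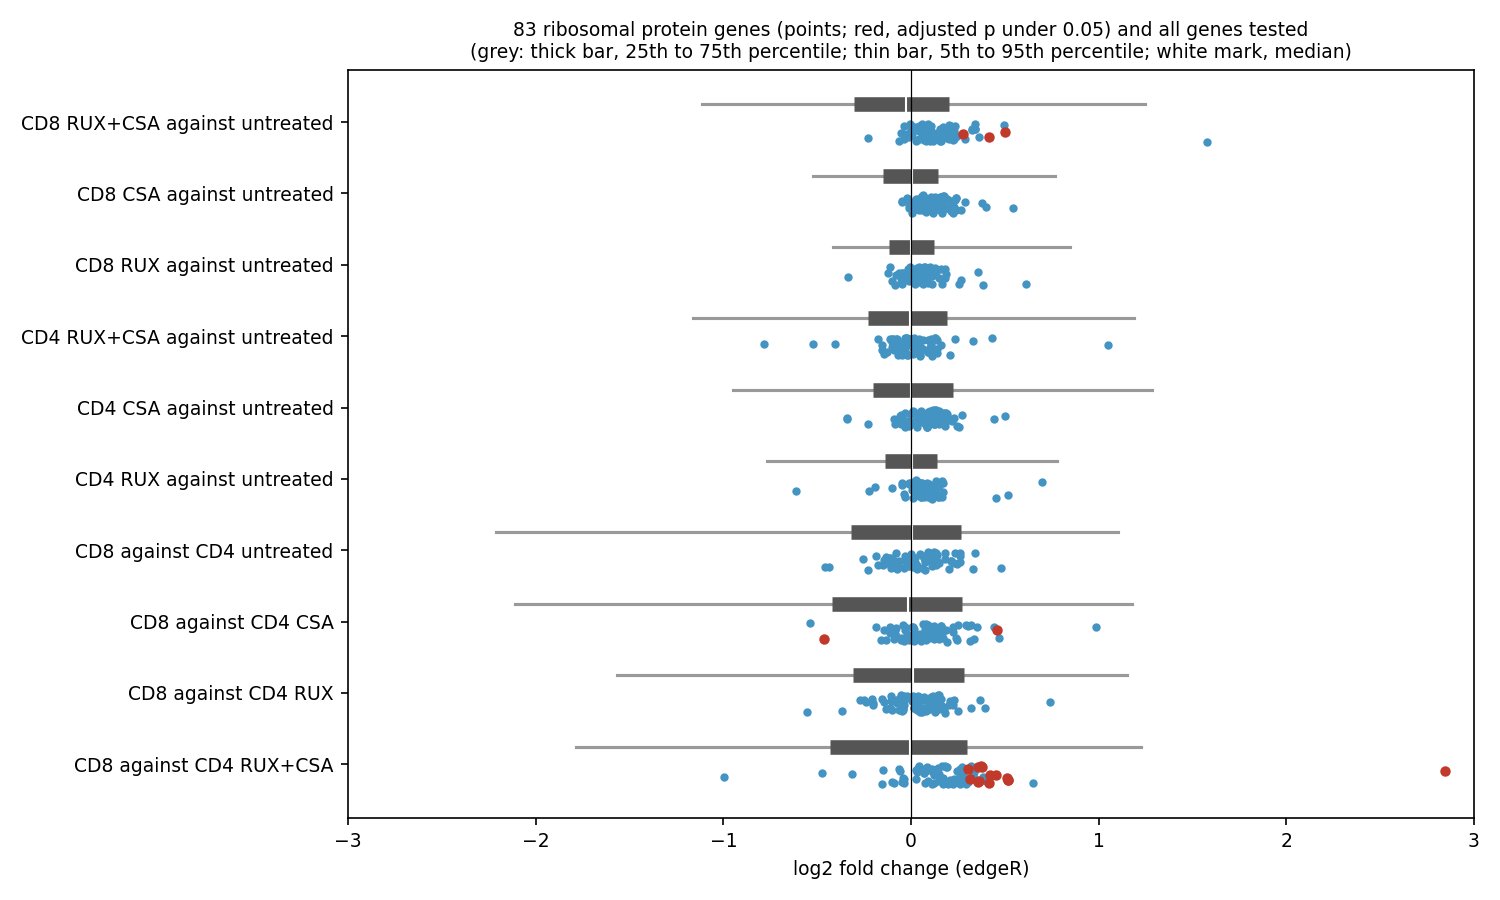
Log2 fold changes of the 83 tested ribosomal protein genes (points; red, adjusted p under 0.05 by edgeR) in 10 comparisons, above each the distribution of all genes tested (thick bar, 25th to 75th percentile; thin bar, 5th to 95th percentile). The range from the 10th to the 90th percentile is narrower for the members than for all genes in each comparison shown, and red points appear in CD8 RUX+CSA against untreated (3), CD8 against CD4 with CSA (2) and CD8 against CD4 with RUX+CSA (14).

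The cell types were compared within each treatment over all 24 libraries. Without treatment, 0 of 83 members differed between CD8 and CD4 cells by edgeR (3 with an unadjusted p under 0.05; DESeq2 called 0), while 17.2% of all 13476 genes did. The members' median log2 difference, CD8 minus CD4, was 0.05 (-0.02 without CD8 pool 1 or CD4 pool 13), and the 95% interval lay within 1.5-fold for 76 of 83. Among the smallest p were those of Rps2 (log2 0.26 ± 0.115, adjusted p = 0.124) and Rpl23a (0.26 ± 0.123, adjusted p = 0.150), by edgeR.

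With RUX+CSA, 14 members were higher in CD8 than in CD4 cells and none was lower, 16.9% of 83, against 27.8% of all genes (14.8% higher, 13% lower) by edgeR. The members' median log2 difference was 0.19, with 70 of 83 above 0, and that of all genes was 0.00. Large subunit members were Rpl4, Rpl5, Rpl7a, Rpl15, Rpl28 and Rpl39l, and small subunit members included Rps2, Rps6, Rps15, Rps16 and Rps26. In 23 members every CD8 pool was above every CD4 pool (23.8% of all genes), and in 2 every pool was below (21.3%).

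Rpl4 had 1108, 1115 and 1031 CPM in the CD8 RUX+CSA pools and 877, 828 and 824 CPM in the CD4 RUX+CSA pools. The groups were well apart, with a log2 difference of 0.36 ± 0.097 (SE) and adjusted p = 0.0078 by edgeR. Rpl4 passed with any 1 of the 6 compared libraries left out. Rpl28, which shows a run of 11 pyrimidines at its start, had 94.6, 93.8 and 81.7 CPM against 69.5, 66.8 and 65.4 CPM, at 0.42 ± 0.119 and adjusted p = 0.0115 by edgeR.

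Other members of this group were smaller or less even. Rps26, at the exit of the mRNA channel, had 139, 129 and 99.3 CPM in CD8 pools and 96.1, 84.6 and 77 CPM in CD4 pools, at 0.51 ± 0.175 (log2, SE; adjusted p = 0.0334, edgeR). Rps6, the substrate of the S6 kinases downstream of mTOR, had 281, 282 and 238 CPM against 216, 227 and 200.5 CPM, at 0.32 ± 0.0997 (adjusted p = 0.0222, edgeR). The CD8 pools were above the CD4 pools throughout for both, with narrow gaps. Rpl5, which with Rpl11 and 5S RNA forms a particle that binds MDM2, had 211, 181 and 154 CPM against 147, 139 and 140 CPM, at 0.36 ± 0.119 (adjusted p = 0.0279, edgeR). For Rpl5, 47.7% of the exon bases overlap Fam69a. Rpl11 was not among the 14.

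Rpl39l had the widest difference, at 2.85 ± 0.864 (log2, SE; adjusted p = 0.0176, edgeR), at a very low level. Its CD8 RUX+CSA pools had 6.71, 0.937 and 1.24 CPM and its CD4 RUX+CSA pools 0.0842, 0.586 and 0.557 CPM. A single pool, CD8 RUX+CSA 10, held the high value. Without it the difference was 1.41 (adjusted p = 0.255), and without CD4 pool 22 it was 2.34 (adjusted p = 0.0703, edgeR).

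The count of 14 depended on single libraries and on the scaling. It was 3 without CD8 pool 10 or 11, 24 without CD8 pool 12, 9, 8 and 4 (3 higher, 1 lower) without CD4 pools 22, 23 and 24, and 5 with no TMM factor. With the other-cell marker score as a covariate it was 13, all among the 14.

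The difference between cell types under RUX+CSA is not a test of whether the drugs acted differently in them. In that test, the RUX+CSA effect in CD8 minus the effect in CD4, 0 of 83 members passed by edgeR (1 with an unadjusted p under 0.05; DESeq2 called 0), against 0.0223% of all genes. The median was 0.15 and 70 of 83 lay above 0; it was 0.08 without CD8 RUX+CSA 10 and 0.23 without CD8 RUX+CSA 12. The smallest p belonged to Rpl36al, at 0.37 ± 0.162 (log2, SE) and adjusted p = 0.310 by edgeR. The comparisons of both cell types share their untreated and treated pools with the comparisons above.

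With CSA alone, 1 member was higher in CD8 than in CD4 cells and 1, Rpl29, was lower, 2.41% of 83 members against 26.3% of all genes (13.6% higher, 12.8% lower) by edgeR. The higher member did not pass with CSA 6 left out. Rpl29 had 99.7, 95.2 and 110 CPM in CD8 pools against 128, 132 and 159 CPM in CD4 pools, at -0.46 ± 0.115 (log2, SE) and adjusted p = 0.00557 by edgeR, and it passed in each of the 14 alternatives run. Without a TMM factor only Rpl29 passed, so that the split of 1 higher and 1 lower became 0 and 1. With RUX alone, 0 members passed by edgeR (3 with an unadjusted p under 0.05; DESeq2 called 1; 17.9% of all genes were called), and the smallest adjusted p was 0.0551. Without CD4 RUX 20, the pool with the highest share of ribosomal protein reads, 6 members passed.

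The stalk proteins, the laminin-receptor homologue and the proteins tied to anaemia can serve as reference points. Group means ran from 443 to 559 RPKM in Rplp0, from 308 to 364 in Rplp1 and from 268 to 297 in Rplp2, which together form the stalk that recruits elongation factors. Rpsa, also known as a laminin receptor, ran from 214 to 251 RPKM. Rps19, the gene most often mutated in Diamond-Blackfan anaemia, ran from 463 to 543 RPKM, and Rpl11, of the same disease, from 246 to 293. Rpl3, Rpl5 and Rpl10 ran from 303 to 358, 70.3 to 92.3 and 230 to 278 RPKM. Rplp0, Rplp2, Rpsa, Rps19 and Rpl10 had their highest group mean in CD8 RUX+CSA pools, and of these genes only Rpl5, described above, passed any of the tests.

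Genes that act with the ribosomal proteins were counted in lists. These counts are from fits with all pools, and their change with a pool left out is not given by comparison. For scale, 7.94% of all genes were higher and 7.73% lower in CD8 RUX+CSA against untreated. Fau and Gnb2l1 (Rack1) encode further ribosomal proteins outside the name rule. In CD8 RUX+CSA against untreated they stood at 0.17 ± 0.117 and 0.20 ± 0.101 (log2, SE), and neither passed (adjusted p = 0.317 and 0.187, edgeR). Among the 22 tested genes of these and other TOP mRNAs, 2 were higher (Eif3h at 0.41 and Eif3k at 0.37, subunits of an initiation factor) and 1 lower (Gas5, a non-coding host of small nucleolar RNAs, at -0.30), with a median of 0.16. Between CD8 and CD4 cells under RUX+CSA, 9 of 22 were higher and none lower (14.8% and 13% of all genes). Pabpc1 (0.50), Eif3e (0.32), Npm1 (0.46) and Eef2 (0.39) were in front. Without treatment 1 was higher (Gas5), where 17.2% of all genes were called in either direction.

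Genes of MYC and ribosome biogenesis formed the second list. In CD8 RUX+CSA against untreated, 12 of 49 MYC and biogenesis genes were higher and none lower (median 0.18), led by Bysl (0.49), Bop1 (0.39), Rrp9 (0.45) and Ebna1bp2 (0.39), factors of pre-ribosome assembly. Over all genes, 7.94% were higher and 7.73% lower in this comparison. Myc itself stood at 0.19 with adjusted p = 0.181 by edgeR. The fit with the marker score as a covariate called 0 of the 49, but it called no gene at all. Marker sums did not overlap between these groups, so that fit separates the score from treatment poorly. Between CD8 and CD4 cells, 14 were higher and 1 lower without treatment, 35 and 1 with CSA, 27 and 2 with RUX, and 37 and 2 with RUX+CSA, of 49. Over all genes, 17.2%, 26.3%, 17.9% and 27.8% were called in these comparisons. Myc was higher in CD8 cells by 1.12 without treatment and by 1.60 with RUX+CSA (log2, edgeR), with Tsr1, a small subunit assembly factor, at 0.58 and 1.01. In CD4 cells 0 of 49 passed in RUX+CSA against untreated by edgeR (median -0.02), against 1.77% of all genes.

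Mitochondrial ribosomal proteins, which build a separate ribosome, gave 10 of 77 higher and none lower in CD8 RUX+CSA against untreated (median 0.18), led by Mrpl43 (0.38), Mrpl33 (0.50), Mrpl54 (0.41) and Mrps24 (0.45). That compares with 7.94% of all genes higher and 7.73% lower. With the marker score as covariate 0 of 77 passed, in a fit that called no gene at all. In CD4 RUX+CSA against untreated 1 was lower, Mrps22 at -0.73, where 0.744% of all genes were lower. Between cell types under RUX+CSA, 14 of 77 were higher in CD8 and 1 lower, where 14.8% of all genes were higher and 13% lower.

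Of 24 regulators of translation and of TOP mRNAs, 2 were higher and 3 lower in CD8 RUX+CSA against untreated. The shares of all genes there were 7.94% higher and 7.73% lower. The GTPase Rheb, which activates mTOR, was higher at 0.49 and Eif4ebp1, a repressor of cap-dependent initiation, at 0.87, while Mtor was lower at -0.48 and Tsc1, a brake on Rheb, at -0.60. Larp1 was higher in CD8 than in CD4 cells, by 0.32 without treatment and 0.44 with RUX+CSA. Of 10 chaperones of ribosomal proteins, 1 was higher in CD8 RUX+CSA (Bccip at 0.29). Under RUX+CSA 7 of them were higher in CD8 than in CD4, with the importin Ipo5 at 0.85, where 14.8% of all genes were higher. Of 14 genes of the p53 response to free ribosomal proteins, 1 was higher (Cdkn1a at 0.72) and 1 lower (Sesn1 at -0.70) in CD8 RUX+CSA. In CD4 cells 1 was lower with CSA (Ccng1 at -0.40), where 1.48% of all genes were called.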

How the data were processed

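Polyadenylated RNA of the sorted cells was made into libraries with the SMART-Seq mRNA LP kit, per the labels' protocols. The authors aligned reads with STAR to mm10, per the submitters' processing notes, and counted read pairs over exons of the UCSC mm10 annotation with featureCounts 2.0.3, per the file headers, without strand and leaving out pairs that match several loci or 2 genes. The deposited values are raw counts of read pairs per gene. Their strand setting means that overlapping and antisense genes cannot be told apart. From them, TMM-scaled CPM and RPKM (over the table's exon length) were computed here; CPM per pool uses scaling over all 24 libraries.

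Tests used edgeR 4.0.16 (quasi-likelihood, robust, filterByExpr by group, two-sided, Benjamini-Hochberg over all genes, threshold 0.05) in R 4.3.3: 12684 genes in 12 CD8 libraries, 13175 in 12 CD4 libraries and 13476 in all 24. Each fit uses all groups of its libraries. SE are on the log2 scale. The code was tested on simulated data with known changes. The labels number the pools but do not identify mice, so whether CD8 and CD4 pools shared mice is not known. Tests treated all pools as independent, and p-values measure the spread between pools. The members were taken by the naming rule and the lists by hand, with earlier results of these data known, so that neither is independent of them. Named members were those past the threshold (up to 6 each way), the 3 smallest p where none passed, the 8 highest and 5 lowest levels, and a fixed set of paralogues and reference genes; some genes that the rule selects are not reported here by name. Lists covered TOP mRNAs outside the rule, MYC and biogenesis, chaperones, translation control, the p53 response and mitochondrial ribosomal proteins. Promoters came from the RefSeq table of GRCm38.p6 and transcripts from GENCODE M21. Alternatives were DESeq2 1.42.0, limma 3.58.1 voom, RLE or no scaling factors, no filter, a covariate of other-cell markers, fewer libraries and each pool left out.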

Additional observations from a re-analysis of the deposited data

How the results depend on the processing

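The count of members past the test was compared over 17 comparisons. It kept its size (within 1.5 times) in all of them with RLE factors and with limma voom. In CD8 RUX+CSA against untreated (3) it was 0 with the marker score as a covariate and 7 without the libraries labelled CSA 6 and RUX 7, and 0 to 10 with 1 pool left out. In CD8 against CD4 with RUX+CSA (14) it was 5 with no TMM factor and 3 to 24 with 1 pool left out. In CD8 against CD4 with CSA (2) it was 1 with no TMM factor, 1 with no filter, 4 with the covariate, 5 with only the compared libraries, 1 without CSA 6 and RUX 7, and 1 to 2 with 1 pool left out. In CD8 against CD4 with RUX (0) it was 1 with DESeq2 and 0 to 6 with 1 pool left out. In CD4 CSA against untreated (0) it was 1 with no filter and 1 with DESeq2, Rpl29 in both. In CD8 RUX+CSA against RUX (0) it was 1 without CSA 6 and RUX 7. Counts of the TOP, biogenesis and mitochondrial lists changed by more than 1.5 times in 96 alternatives over all comparisons and kept their size in 618. The cause of these changes was not tested, beyond the loss of libraries.

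The median log2 change of the members in CD8 RUX+CSA against untreated was 0.13 and ran from 0.05 (no TMM factor) to 0.24 over 14 alternatives, all above 0. In CD8 against CD4 with RUX+CSA it ran from 0.10 to 0.25 around 0.19. Medians nearer 0 changed sign in some, up to 5 of 14 in CD8 RUX+CSA against CSA. Direction was followed for members past the threshold in the main fits, for Rps10 in CD8 RUX+CSA, and for Rpl29 and Rps27l in CD4 cells. None of these turned its direction in the alternatives, and other named genes were not followed. Rps10 passed in CD8 RUX+CSA under 6 alternatives. Leaving out the TMM factor moved the median of all genes by -0.09 in both comparisons. No paired analysis was possible because pools of different groups carry different numbers. With 3 pools a group, the 95% interval of the fold change stayed within 1.5-fold for 71 of 83 members in CD8 RUX+CSA against untreated and for 61 in CD8 against CD4 with RUX+CSA.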

Other observations

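The count table held 7 rows named as numbered ribosomal protein pseudogenes, which the naming rule leaves out. They had 14490 read pairs in all 24 libraries, 0.146% of the 9920663 read pairs in the 87 members. Rps15a-ps6 had 7348 and Rpl14-ps1 6267 of these, Rps19-ps3 had 514, Rps15a-ps4 had 255 and Rpl31-ps12 had 106, while Rplp2-ps1 and Rpl34-ps1 had 0.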
